A study of Mus musculus with 61 samples.

Results

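Amino acid transporters are membrane carriers that move amino acids into, out of and within cells. The genes followed here are those whose symbols start with Slc1a, Slc3a, Slc7a, Slc36a, Slc38a or Slc43a. The rule finds 42 of the 24551 gene records counted across the labelling windows, and the same number among the 22911 records counted across the Klf17 genotypes. Of these, 34 had enough reads to be tested in each experiment, where a gene needs about 10 reads or more in as many libraries as a group holds. The 34 were not all the same genes in both experiments. All 42 symbols matched the RefSeq gene table of GRCm38.p6. The rule also takes in Slc7a6os, which is named for its position next to Slc7a6 and encodes a nuclear factor rather than a carrier, and Slc43a3, best known as a carrier of purine nucleobases.

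The carriers divide by what they move and by what drives them. Members of the Slc7 family fall into cationic transporters for arginine and lysine, which work alone, and light chains, which reach the cell surface only when bound to a heavy chain of the Slc3 family. Slc1 carriers use the sodium gradient to take up glutamate and aspartate or to exchange small neutral amino acids, Slc38 carriers bring in glutamine and alanine together with sodium, and some Slc38 and Slc36 members sit on lysosomes. Eggs and early embryos are known to depend on such carriers for osmotic balance, for glutathione synthesis and for signalling through mTORC1, the kinase complex that reports amino acid supply.

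All groups came from mice, with embryos made by in vitro fertilisation after superovulation, and every library used here was labelled for 6 h with 2 mM 4-thiouridine (4SU), a uridine analogue that marks newly made RNA. The first experiment held wild-type MII oocytes, the unfertilised eggs, and wild-type embryos in 9 labelling windows named by the hours since insemination (0-6hpi to 90-96hpi), with 3 libraries per group and 10 embryos per sample. For 0-6hpi the analogue was also in the medium in which sperm and egg masses with their cumulus cells were brought together. The second held embryos of the stage labelled M2C in 4 genotypes: wild type (ctrl, 3 libraries), Klf17 KO (3 libraries), Klf17 maternal KO (mKO, 3 libraries) and Klf17 paternal KO (pKO, 2 libraries). The labels give no strain, no age and no description of the deleted part of Klf17, and in pooled embryos a change in cell number of a type and a change of RNA per cell cannot be told apart. Nothing says that replicates came from separate cultures, so each p-value is set by the spread among the libraries at hand, which may be technical. Fold changes are given as log2FC ± SE, of the later group over the earlier one or, between genotypes, of the first label over the second. Their adjusted p-values come from edgeR's quasi-likelihood test with Benjamini-Hochberg adjustment.

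Totals were 7395193 to 13301570 reads per library in the windows and 14080264 to 23018252 in the genotypes, of which the 42 genes took 0.089% to 0.148% as group means in the windows. Levels are in CPM, read counts scaled to a common library size. They are shares of the polyadenylated RNA in a library, not amounts per embryo. Whether unconverted reads are part of the counts is not given in the sources used here, so a level may include RNA made before labelling. The oocyte marker genes summed to 10598 to 10803 CPM in MII oocytes, and the trophectoderm markers to 5667 to 9093 CPM at 90-96hpi against 197 to 213 CPM in MII oocytes, in the direction the labels give. Cumulus and granulosa cell markers summed to 137 to 154 CPM in MII oocytes, where 8 of 13 were at 0. In 90-96hpi replicate 2 the markers of 2-cell embryos summed to 63.8 CPM, against 2.77 and 14.2 CPM in the other libraries of that window. Oocyte markers in that window were at most 0.718% of their MII level.

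Over the windows, 31 of the 34 tested transporter genes varied between groups (edgeR quasi-likelihood F-test over all groups, adjusted p below 0.05), where 98.4% of all genes tested did. The genes differed in timing. Slc3a2, Slc7a11 and Slc43a3, abundant in eggs, fell over the 1-cell span, and a cationic carrier (Slc7a2) was high through the 1-cell windows. Small neutral exchangers and Slc7a5 were highest at 30-36hpi, and Slc1a1, Slc7a6, Slc38a1 and Slc38a4 rose from 30-36hpi to 48-54hpi. Per kilobase of gene model, Slc3a2 remained the highest member in each group except 70-76hpi, where Slc43a3 was highest. By their highest group mean, 7 of the 34 genes peaked in MII oocytes, 5 at 30-36hpi, 4 at 48-54hpi, 5 at 70-76hpi and 6 at 90-96hpi, with 7 in the remaining windows.

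**Figure D1:**
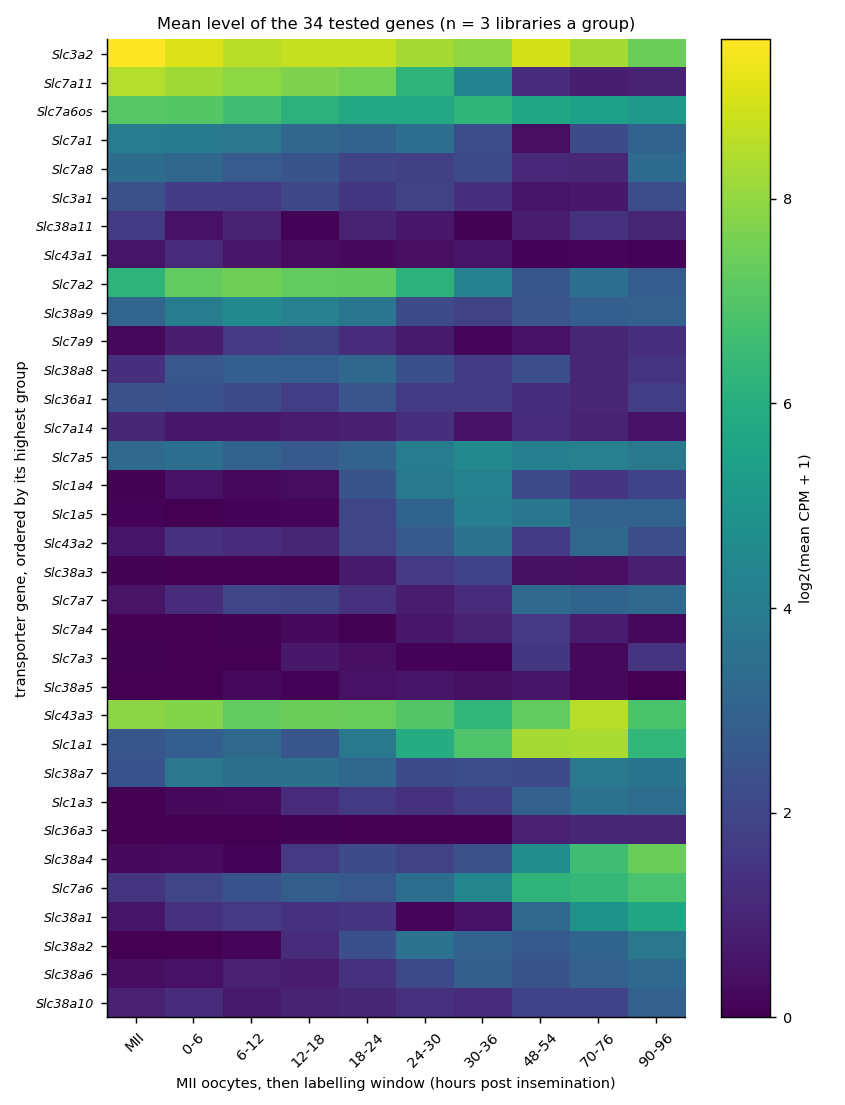
Mean level of the 34 tested genes in MII oocytes and the 9 labelling windows, as log2(mean CPM + 1), with 3 libraries in each group and rows ordered by the group in which a gene is highest. The 7 genes at the top are highest in MII oocytes, and the 6 at the bottom are highest at 90-96hpi.

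Slc3a2 encodes the heavy chain 4F2hc (CD98) and lies on chromosome 19 at chr19:8706882-8723369 in GRCm38.p6. It was the member with the highest level per kilobase of gene model in MII oocytes, at 267 ± 11.5 CPM per kb (SD, n = 3). Its levels in the 3 libraries were 769.8, 715 and 772 CPM in MII oocytes, 520.4, 576 and 478 at 0-6hpi and 389.8, 397 and 359 at 6-12hpi. The 12-18hpi libraries gave 408, 459.6 and 405 CPM and those of 18-24hpi 417, 418 and 436. They were 331, 277 and 312 CPM at 24-30hpi, 272, 245 and 240.1 at 30-36hpi, 552, 427 and 504 at 48-54hpi, 304, 342 and 287 at 70-76hpi and 202, 152 and 149.9 at 90-96hpi. The heavy chain thus fell in the 1-cell embryo, came back at 48-54hpi and fell again to its lowest level at 90-96hpi, with no overlap between libraries at any of these turns. It fell from MII oocytes to 0-6hpi (log2FC -0.52 ± 0.12, adjusted p = 0.00117) and over the whole 1-cell span to 12-18hpi (log2FC -0.83 ± 0.12, adjusted p = 4.43e-07). It rose from 30-36hpi to 48-54hpi (log2FC 0.97 ± 0.12, adjusted p = 9.28e-09), and then fell to 70-76hpi (log2FC -0.67 ± 0.12, adjusted p = 1.67e-05) and to 90-96hpi (log2FC -0.89 ± 0.12, adjusted p = 1.92e-07). From MII oocytes to 90-96hpi the difference was -2.16 on the log2 scale (SE 0.12, adjusted p = 5.93e-18).

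Smaller steps of Slc3a2 depended on the setting. The fall from 0-6hpi to 6-12hpi (log2FC -0.46 ± 0.12, adjusted p = 0.00962) was lost without the filter on low counts (adjusted p = 0.0634). The fall to 24-30hpi (log2FC -0.47 ± 0.12, adjusted p = 0.00146) was lost on leaving out any library of 18-24hpi or library 1 of 24-30hpi (adjusted p = 0.076 to 0.139) and with total count scaling (adjusted p = 0.742). The next fall, to 30-36hpi (log2FC -0.28 ± 0.12, adjusted p = 0.0473), was lost on leaving out library 1 or 3 of 24-30hpi or library 2 or 3 of 30-36hpi (adjusted p = 0.111 to 0.794), with DESeq2 size factors (adjusted p = 0.143), with total count scaling (adjusted p = 0.0658), without the filter on low counts (adjusted p = 0.271), in a fit of these 2 groups alone (adjusted p = 0.163) and by DESeq2's Wald test (adjusted p = 0.149). Over the longer span from 12-18hpi to 30-36hpi (log2FC -0.75 ± 0.12, adjusted p = 8.23e-07), the fall was lost on leaving out library 2 of 12-18hpi (adjusted p = 0.0582) and with total count scaling (adjusted p = 0.144).

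Slc7a11 encodes xCT, the light chain that exchanges cystine for glutamate and so feeds glutathione synthesis (chr3:50364936-50499087). Its levels were 355, 381 and 334 CPM in MII oocytes, 296, 292 and 282 at 0-6hpi and 256, 225 and 249.8 at 6-12hpi. Levels of 228, 186 and 212 CPM at 12-18hpi and 191, 159 and 204 at 18-24hpi followed. They were then 75, 92.5 and 54.8 CPM at 24-30hpi, 13.9, 19.8 and 22.8 at 30-36hpi, 1.22, 0.729 and 2.01 at 48-54hpi, 0.107, 1.21 and 0.847 at 70-76hpi and 0.997, 0.672 and 1.14 at 90-96hpi. It was the steepest loss among the tested members from MII oocytes to 90-96hpi, and it was not made up in any later window. Its fall was gradual over the 1-cell span (log2FC -0.77 ± 0.18, adjusted p = 0.000604) and steeper at each of the next steps, to 24-30hpi (log2FC -1.32 ± 0.18, adjusted p = 3.23e-07), to 30-36hpi (log2FC -1.97 ± 0.20, adjusted p = 2.89e-10) and to 48-54hpi (log2FC -3.84 ± 0.28, adjusted p = 5.79e-14). From MII oocytes to 90-96hpi log2FC was -8.56 ± 0.29 (adjusted p = 2.45e-24), and every library of the later group was lower.

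Of the 42 genes, 31 have an entry in the RefSeq promoter table of GRCm38.p6. The 250 bases before the listed start are given for the egg pair Slc7a11 and Slc3a2, which fall, and for Slc1a1, which rises, all on the strand of the gene and 5′ to 3′. Capitals mark TGATGNAAN, the letters of an amino acid response element, searched on both strands. The windows are chr3:50443614-50443863 (minus strand), chr19:8713898-8714147 (minus strand) and chr19:28834885-28835134 (plus strand). The listed starts of Slc7a11 and Slc3a2 lie inside their gene records, which reach to 50499087 and 8723369. Sequence beyond those outer ends was not searched.
Slc7a11: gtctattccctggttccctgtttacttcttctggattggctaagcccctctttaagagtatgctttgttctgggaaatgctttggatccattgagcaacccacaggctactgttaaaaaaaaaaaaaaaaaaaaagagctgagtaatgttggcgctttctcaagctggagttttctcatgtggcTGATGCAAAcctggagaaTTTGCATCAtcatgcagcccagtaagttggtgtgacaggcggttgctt
Slc3a2: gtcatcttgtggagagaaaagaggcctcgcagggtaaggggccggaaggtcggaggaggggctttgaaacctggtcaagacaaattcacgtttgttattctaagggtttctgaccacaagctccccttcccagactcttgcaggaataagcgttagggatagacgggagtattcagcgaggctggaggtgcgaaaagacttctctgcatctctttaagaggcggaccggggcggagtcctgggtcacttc
Slc1a1: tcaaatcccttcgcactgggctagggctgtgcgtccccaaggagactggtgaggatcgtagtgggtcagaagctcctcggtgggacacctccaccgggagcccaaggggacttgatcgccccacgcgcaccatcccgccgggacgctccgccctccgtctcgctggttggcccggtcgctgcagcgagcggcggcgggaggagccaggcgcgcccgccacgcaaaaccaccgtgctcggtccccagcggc
The Slc7a11 window held the motif in both orientations, starting 66 and 48 bases before the start, with no overlap between the matches. The windows of Slc3a2 and Slc1a1 did not hold these letters, and all 3 windows lacked the other motifs searched on both strands. These were the antioxidant response element core (TGACNNNGC), the TATA box (letters TATAAA) and the CACCC box that Kruppel-like factors are known to bind, written here as CCACCC. Among the 32851 promoter windows of the table, 3.44% held the amino acid response element, 10.2% the antioxidant core, 12.4% the TATA box and 28.1% the CACCC box. The 31 transporter genes have 42 windows, as a gene with several starts has several. Of these 42 windows, 3 (7.14%) held the amino acid response element (in Slc7a11 and Slc7a7), 4 (9.52%) the antioxidant core, 6 (14.3%) the TATA box and 17 (40.5%) the CACCC box. The Slc1a1 window was the richest in CG of the 3 shown, with 27 CG pairs against 11 for Slc3a2 and 2 for Slc7a11, where the median over all windows was 6.

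The light chains that pair with Slc3a2 changed in composition while the heavy chain was present throughout. Per kilobase, Slc7a11 made up 87.6 ± 0.513% (SD, n = 3) of the summed level of Slc7a5, Slc7a6, Slc7a7, Slc7a8, Slc7a10 and Slc7a11 in MII oocytes, and 80.9 ± 2.87% at 18-24hpi. Its share was 49.9 ± 8.53% at 24-30hpi, 13.9 ± 3.57% at 30-36hpi and 0.507 ± 0.253% at 48-54hpi. The share of Slc7a6 went from 1.07 ± 0.296% in MII oocytes to 34.8 ± 3.72% at 30-36hpi, 68.3 ± 5.14% at 48-54hpi and 74.7 ± 4.34% at 90-96hpi. Between them, Slc7a5 took 41.8 ± 2.23% at 30-36hpi, a higher share than in any other window. In mean share, Slc7a11 was the first light chain up to 24-30hpi, Slc7a5 at 30-36hpi and Slc7a6 from 48-54hpi on.

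**Figure D2:**
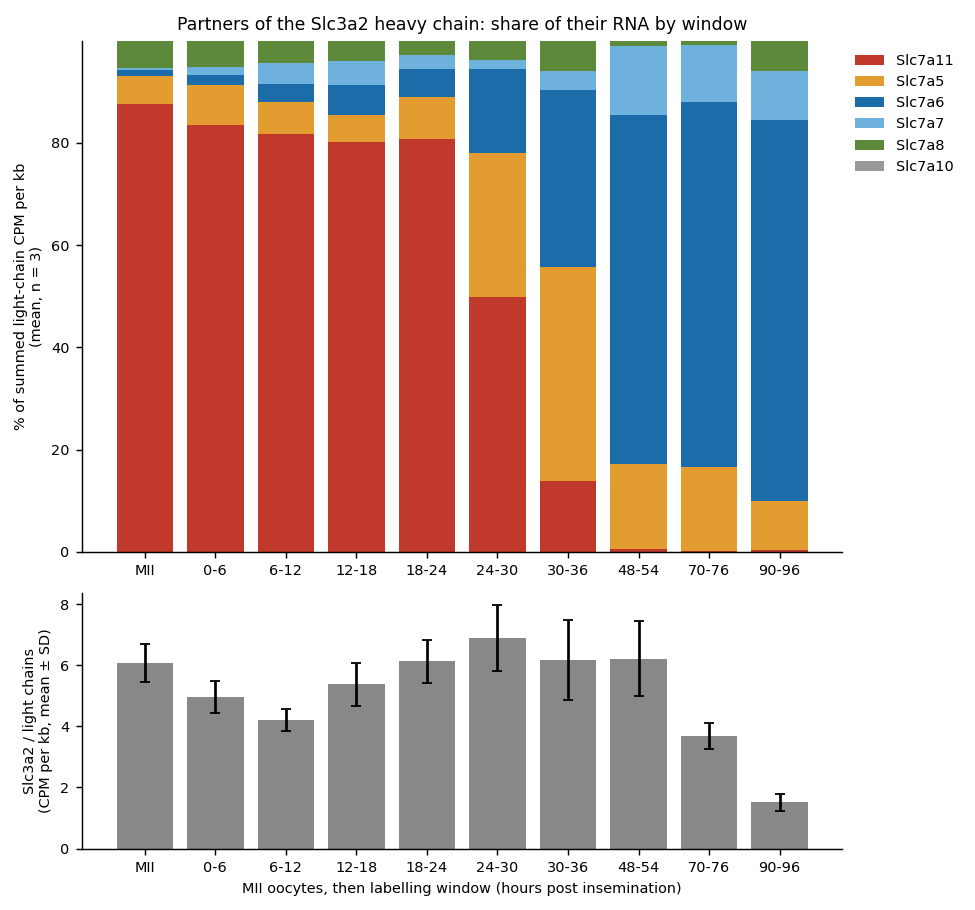
Top: share of each light-chain partner of the Slc3a2 heavy chain in their summed CPM per kb, as means of 3 libraries, in MII oocytes and 9 windows. Bottom: ratio of Slc3a2 to the sum of its light chains (mean ± SD). Slc7a11 holds 87.6% of the sum in MII oocytes and Slc7a6 holds 74.7% at 90-96hpi, while the ratio drops from 6.21 at 48-54hpi to 1.51 at 90-96hpi.

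The amount of heavy chain per light chain also changed. Slc3a2 was 6.08 ± 0.622 times the summed light chains in MII oocytes, per kilobase, and between 4.21 ± 0.374 and 6.89 ± 1.07 times in the windows from 0-6hpi to 48-54hpi. It was 3.69 ± 0.418 times at 70-76hpi and 1.51 ± 0.272 times at 90-96hpi, where the 3 libraries ranged from 1.25 to 1.79. The 48-54hpi libraries ranged from 4.95 to 7.41, with no overlap, and an exact two-sided permutation test gave p = 0.1, the smallest value that 3 libraries against 3 can reach.

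Slc7a6 encodes y+LAT2, which exports arginine against glutamine (chr8:106168219-106198714). It was at 1.27, 2.42 and 1.66 CPM in MII oocytes, 4.62, 1.13 and 3.18 at 0-6hpi and 4.54, 4.92 and 3.47 at 6-12hpi. At 12-18hpi the libraries read 4.82, 6.92 and 6.65 CPM, and at 18-24hpi 3.79, 4.15 and 7.38. It was at 12.5, 10.4 and 7.04 CPM at 24-30hpi, 20.3, 14 and 24.7 at 30-36hpi, 66.5, 85.1 and 68.4 at 48-54hpi, 60.5, 91.7 and 91.8 at 70-76hpi and 119.5, 119 and 94.8 at 90-96hpi. Each of the late libraries stood above each of the libraries up to 30-36hpi. It rose from MII oocytes to 12-18hpi (log2FC 1.78 ± 0.38, adjusted p = 0.000188), to 24-30hpi (log2FC 0.97 ± 0.32, adjusted p = 0.0128, with overlapping libraries), to 30-36hpi (log2FC 0.98 ± 0.29, adjusted p = 0.00529; from 12-18hpi, log2FC 1.67 ± 0.31, adjusted p = 9.24e-06) and to 48-54hpi (log2FC 1.90 ± 0.28, adjusted p = 4.04e-07). From MII oocytes to 90-96hpi log2FC was 5.95 ± 0.36 (adjusted p = 4.75e-17).

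Slc7a6os lies on the opposite strand, with 1723 bases between its 3′ end and that of Slc7a6. From MII oocytes to 12-18hpi and to 90-96hpi, where Slc7a6 rose, it fell, from 119, 122 and 159.7 CPM in MII oocytes to 52.7, 76.5 and 78.5 CPM at 12-18hpi (log2FC -0.95 ± 0.15, adjusted p = 4.09e-06) and 36.7, 34.1 and 31.4 CPM at 90-96hpi (against MII oocytes, log2FC -1.97 ± 0.16, adjusted p = 1.19e-13). Its levels were 128, 139.8 and 121 CPM at 0-6hpi, 98.7, 98.4 and 96.3 at 6-12hpi, 51.3, 50.3 and 57.4 at 18-24hpi and 52, 53.2 and 53.6 at 24-30hpi. A brief rise interrupted the decline at 30-36hpi, to 67.4, 72.9 and 86.5 CPM (log2FC 0.51 ± 0.15, adjusted p = 0.00565), followed by a fall to 53.2, 52.9 and 47.3 CPM at 48-54hpi (log2FC -0.56 ± 0.15, adjusted p = 0.0019). It was at 39, 41.9 and 50.0 CPM at 70-76hpi. The fall from 6-12hpi to 12-18hpi (log2FC -0.50 ± 0.15, adjusted p = 0.0256) was lost on leaving out library 2 of 6-12hpi or library 1 of 12-18hpi (adjusted p = 0.0764 to 0.0891), and the one from 48-54hpi to 90-96hpi (log2FC -0.59 ± 0.16, adjusted p = 0.0017) was lost with total count scaling (adjusted p = 0.145).

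Slc7a5 encodes LAT1, the carrier of leucine and other large neutral amino acids (chr8:121881146-121907686). Its libraries read 8.17, 10.9 and 7.07 CPM in MII oocytes, 6.88, 10.8 and 13.3 at 0-6hpi and 5.47, 8.04 and 7.89 at 6-12hpi. The 12-18hpi libraries gave 4.33, 5.13 and 6.54 CPM and those of 18-24hpi 4.97, 7.61 and 8.63. Later levels were 15.8, 10.7 and 19.5 CPM at 24-30hpi, 21.7, 16.9 and 27.7 at 30-36hpi, 18.2, 14.4 and 17.2 at 48-54hpi, 24.1, 13.2 and 13 at 70-76hpi and 11.3, 15.3 and 13.4 at 90-96hpi. The gene rose once, at 24-30hpi (log2FC 1.12 ± 0.32, adjusted p = 0.00466; from 12-18hpi to 30-36hpi, log2FC 2.04 ± 0.33, adjusted p = 1.2e-06), and no other step passed the test.

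The remaining partners were low. Slc7a7 (y+LAT1) rose from 1.25 ± 0.925 CPM at 30-36hpi to 8.79 ± 1.99 CPM at 48-54hpi (log2FC 2.82 ± 0.58, adjusted p = 7.85e-05). Slc7a8 (LAT2) went from 9.87, 8.26 and 10.3 CPM in MII oocytes to 0.748, 0.933 and 1.38 CPM at 70-76hpi and was at 5.43, 9.75 and 12.1 CPM at 90-96hpi, a rise over 70-76hpi (log2FC 3.14 ± 0.50, adjusted p = 3.67e-06). Its order in the 90-96hpi libraries was that of the oocyte markers there (4.76, 34.7 and 76.7 CPM summed). At 70-76hpi, where Slc7a8 was lower, those markers summed to 46.6, 89.7 and 80.6 CPM. The part of oocyte RNA in the rise of Slc7a8 was not tested. Slc3a1, the other heavy chain, known from cystine uptake in the kidney, followed the same course, from 3.82, 5.17 and 3.43 CPM in MII oocytes to 0.534, 0.653 and 0.53 CPM at 70-76hpi and 3.43, 3.25 and 4.55 CPM at 90-96hpi (log2FC 2.68 ± 0.62, adjusted p = 0.000642). Its partner Slc7a9 reached 2.48 ± 1.2 CPM at 12-18hpi, up from 0.145 ± 0.169 CPM in MII oocytes (log2FC 3.97 ± 0.87, adjusted p = 0.000277), and fell to 3 reads in all by 30-36hpi (adjusted p = 2.73e-05).

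Among the cationic carriers, Slc7a2 was highest at 6-12hpi and Slc7a1 in MII oocytes. Slc7a2 (CAT2; chr8:40862341-40922070), which takes up arginine and lysine, was at 70.9, 86.1 and 60.8 CPM in MII oocytes, 128, 165 and 169.7 at 0-6hpi and 176, 171 and 192 at 6-12hpi. Levels of 143, 151 and 168 CPM at 12-18hpi and 149.9, 151 and 149 at 18-24hpi followed. It was at 70.8, 64.3 and 71.5 CPM at 24-30hpi, 14, 21.9 and 17.1 at 30-36hpi, 7.31, 1.04 and 6.47 at 48-54hpi, 10.6, 9.33 and 10.7 at 70-76hpi and 3.55, 6.39 and 7.86 at 90-96hpi. All libraries from 0-6hpi to 18-24hpi were above all MII libraries, and all libraries from 30-36hpi on were below them.

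Slc7a2 rose at the first step (log2FC 1.08 ± 0.25, adjusted p = 0.0015; to 12-18hpi, log2FC 1.08 ± 0.25, adjusted p = 0.00061). It then fell to 24-30hpi (log2FC -1.12 ± 0.25, adjusted p = 0.00041), to 30-36hpi (log2FC -1.96 ± 0.26, adjusted p = 2.65e-07; from 12-18hpi, log2FC -3.11 ± 0.27, adjusted p = 5.97e-12) and to 48-54hpi (log2FC -1.84 ± 0.30, adjusted p = 3.92e-06). Against MII oocytes it was lower at 90-96hpi (log2FC -3.61 ± 0.30, adjusted p = 1e-12). Its rise at 70-76hpi (log2FC 1.04 ± 0.31, adjusted p = 0.00769) was lost on leaving out library 2 of 48-54hpi (adjusted p = 0.0721) and in a fit of these 2 groups alone (adjusted p = 0.0749), and its fall at 90-96hpi (log2FC -0.78 ± 0.31, adjusted p = 0.0444) was lost on leaving out any library of 70-76hpi or library 1 or 2 of 90-96hpi (adjusted p = 0.0779 to 0.273), with total count scaling (adjusted p = 0.0931) and in a fit of these 2 groups alone (adjusted p = 0.0563). Slc7a1 (CAT1), the widely used carrier of the same amino acids, was at 15.7 ± 1.75 CPM in MII oocytes, fell to 0.318 ± 0.458 CPM at 48-54hpi (log2FC -3.46 ± 0.52, adjusted p = 4.36e-07) and rose again to 3.61 ± 0.297 CPM at 70-76hpi (log2FC 3.37 ± 0.52, adjusted p = 1.8e-06). Slc7a3 did not exceed 1.96 ± 2 CPM. Summed per kilobase, the 3 cationic carriers were at 11.4 ± 1.77 CPM per kb in MII oocytes, 24.5 ± 1.46 at 6-12hpi, 2.79 ± 0.551 at 30-36hpi and 1.38 ± 0.851 at 48-54hpi.

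Glutamate uptake genes moved the other way. Slc1a1 (EAAT3; chr19:28835135-28913960) takes up glutamate, aspartate and cysteine. Its levels were 4.78, 6.27 and 3.76 CPM in MII oocytes, 9.87, 4.53 and 4.51 at 0-6hpi and 16.8, 5.67 and 3.89 at 6-12hpi. At 12-18hpi the libraries read 4.7, 2.86 and 7.09 CPM, and at 18-24hpi 18.5, 12.4 and 9.01. They were 47.3, 67.3 and 63.9 CPM at 24-30hpi, 128, 118 and 112 at 30-36hpi, 290.0, 312 and 311 at 48-54hpi, 289, 386 and 302 at 70-76hpi and 78.2, 81.5 and 78.6 at 90-96hpi. The gene climbed at each step from 18-24hpi to 48-54hpi and dropped at 90-96hpi, each time without overlap between neighbouring libraries.

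The first rise of Slc1a1, at 18-24hpi (log2FC 1.44 ± 0.41, adjusted p = 0.00764), was lost on leaving out library 1 of 18-24hpi (adjusted p = 0.0542). It rose further to 24-30hpi (log2FC 2.16 ± 0.35, adjusted p = 1.62e-05), to 30-36hpi (log2FC 1.00 ± 0.32, adjusted p = 0.0108; from 12-18hpi, log2FC 4.59 ± 0.40, adjusted p = 1.15e-10) and to 48-54hpi (log2FC 1.35 ± 0.31, adjusted p = 0.000624). At 90-96hpi it fell (log2FC -2.04 ± 0.32, adjusted p = 1.52e-05; from 48-54hpi, log2FC -1.94 ± 0.32, adjusted p = 1.25e-05) and still stood above MII oocytes (log2FC 4.00 ± 0.39, adjusted p = 7.92e-10). Slc1a3 (GLAST), which carries glutamate and aspartate, had no read in MII oocytes and 7.2, 10.3 and 11.8 CPM at 90-96hpi, at least 89.7-fold higher if 3 reads over the MII group are taken as the floor. Slc1a2 and Slc1a7, of the same family, had too few reads to be tested. Per kilobase, Slc1a1, Slc1a2, Slc1a3 and Slc1a7 summed to 1.30 ± 0.333 CPM per kb in MII oocytes, 81.6 ± 3.42 at 48-54hpi, 88.3 ± 13.2 at 70-76hpi and 23.1 ± 0.829 at 90-96hpi.

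The exchangers of small neutral amino acids appeared with the 2-cell windows. Slc1a5 (ASCT2), known for glutamine exchange, was at 0.12, 0 and 0.218 CPM at 12-18hpi, 4.5, 2.88 and 1.75 at 18-24hpi, 6.96, 7 and 8.31 at 24-30hpi and 14.8, 18.8 and 15 at 30-36hpi, and Slc1a4 (ASCT1), which prefers alanine and serine, was at 0.241, 0 and 0.545, 4.5, 4.5 and 4.5, 18.6, 5.36 and 17.1 and 12.7, 21.8 and 17.3 CPM. Both rose at 18-24hpi, Slc1a5 (adjusted p = 1.64e-06) from 3 reads in all at 12-18hpi, too few for a fold, and Slc1a4 as well (log2FC 4.00 ± 0.80, adjusted p = 0.000134). Both were higher still at 24-30hpi, Slc1a4 with log2FC 1.60 ± 0.58 (adjusted p = 0.0233) and Slc1a5 with 1.28 ± 0.42 (adjusted p = 0.0136). The call of Slc1a4 was lost on leaving out library 1 or 3 of 24-30hpi (adjusted p = 0.0574 to 0.0829). Slc1a5 alone of this pair rose again at 30-36hpi by the test (log2FC 1.13 ± 0.40, adjusted p = 0.0193), a call lost on leaving out library 2 of 24-30hpi or library 2 of 30-36hpi (adjusted p = 0.0569 to 0.0651). Slc1a4 then fell from 30-36hpi to 48-54hpi (log2FC -2.37 ± 0.59, adjusted p = 0.000817), whereas Slc1a5 was at 15.5, 10.8 and 11.4 CPM at 48-54hpi and did not pass the test. Whether the genes differ in these steps was not tested. Slc43a2 (LAT4), a carrier of branched-chain amino acids and phenylalanine, and Slc38a3, a glutamine carrier of system N, had their highest means in the same window, at 11.4 ± 2.74 and 2.8 ± 0.829 CPM. Both fell by 48-54hpi, Slc43a2 to 2.16 ± 1.22 CPM (log2FC -2.38 ± 0.48, adjusted p = 5.17e-05) and Slc38a3 to 0.335 ± 0.58 CPM (log2FC -3.07 ± 1.15, adjusted p = 0.0218), the latter lost on leaving out library 2 of 30-36hpi or library 1 or 2 of 48-54hpi (adjusted p = 0.0538 to 0.0707).

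The carriers of system A, which accumulate alanine and glutamine with sodium, came last. Their genes lie side by side on chromosome 15: Slc38a1 (SNAT1; chr15:96571418-96643438) is 44.0 kb from Slc38a2 (SNAT2; chr15:96687392-96699728), and Slc38a4 (SNAT4; chr15:96994816-97055956) is 295 kb further. Slc38a4, an imprinted gene known to be expressed from the paternal allele, was at 0.106, 0.44 and 0 CPM in MII oocytes, 0.0906, 0.103 and 0.418 at 0-6hpi and 0, 0.189 and 0 at 6-12hpi. The 12-18hpi libraries gave 0.361, 5.01 and 0.545 CPM and those of 18-24hpi 1.54, 5.42 and 4. It was at 0.549, 1.44 and 6.1 CPM at 24-30hpi, 1.31, 6.49 and 4.6 at 30-36hpi, 26.3, 23.1 and 27.5 at 48-54hpi, 85.3, 120.1 and 91.5 at 70-76hpi and 200.3, 149.9 and 157 at 90-96hpi. It rose to 48-54hpi (log2FC 2.60 ± 0.62, adjusted p = 0.000877) and to 70-76hpi (log2FC 1.95 ± 0.55, adjusted p = 0.00647), and it rose over the last 2 steps combined (log2FC 2.72 ± 0.57, adjusted p = 0.000267). Against MII oocytes log2FC at 90-96hpi was 9.77 ± 0.95 (adjusted p = 2.37e-09). An early rise at 12-18hpi rested on replicate 2 of that window: the call against 6-12hpi (adjusted p = 0.0467, against 2 reads in all) was lost on leaving out any library of 6-12hpi or library 2 of 12-18hpi (adjusted p = 0.0982 to 0.535), and the call against MII oocytes (log2FC 3.34 ± 1.29, adjusted p = 0.0408) was lost on leaving out library 1 or 3 of MII oocytes or library 2 of 12-18hpi (adjusted p = 0.115 to 0.604).

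Slc38a1 was at 0.318, 0.55 and 0.442 CPM in MII oocytes, 2.36, 1.85 and 0.752 at 0-6hpi and 2.79, 1.61 and 1.58 at 6-12hpi. Levels of 0.963, 0.835 and 3.16 CPM at 12-18hpi and 0.828, 1.73 and 3 at 18-24hpi followed. It then dipped to 0.0915, 0.206 and 0.0848 CPM at 24-30hpi (log2FC -3.76 ± 0.82, adjusted p = 0.00027) and 0.101, 0.155 and 0.941 at 30-36hpi before it rose to 8.24, 4.58 and 14 CPM at 48-54hpi (log2FC 4.52 ± 0.61, adjusted p = 7.2e-08). The last windows read 27.7, 30.3 and 25.8 CPM at 70-76hpi (log2FC 1.65 ± 0.45, adjusted p = 0.00278) and 73.3, 30.8 and 46.1 CPM at 90-96hpi (from 48-54hpi, log2FC 2.49 ± 0.46, adjusted p = 1.49e-05; from MII oocytes, log2FC 6.80 ± 0.62, adjusted p = 2.64e-12). Its early calls were less firm: the rise at 0-6hpi (log2FC 1.88 ± 0.68, adjusted p = 0.0424) was lost on leaving out any library of MII oocytes or library 1 or 2 of 0-6hpi (adjusted p = 0.0744 to 0.199) and with DESeq2 size factors (adjusted p = 0.054), that from MII oocytes to 12-18hpi (log2FC 1.91 ± 0.69, adjusted p = 0.0226) was lost on leaving out library 1 or 3 of MII oocytes or library 3 of 12-18hpi (adjusted p = 0.0587 to 0.389), and the fall from 12-18hpi to 30-36hpi (log2FC -2.11 ± 0.68, adjusted p = 0.00604) was lost on leaving out library 3 of 12-18hpi (adjusted p = 0.337).

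Slc38a2, between these genes, had its first maximum earlier. It had no read in MII oocytes or at 0-6hpi and was at 1.32, 1.43 and 0.982 CPM at 12-18hpi and at least 11.4-fold above MII oocytes. It reached 12.2, 7.21 and 15.4 CPM at 24-30hpi and 11.4, 14.9 and 12.3 CPM at 90-96hpi, at least 118-fold above MII oocytes. Summed per kilobase, the 3 genes of system A were at 0.103 ± 0.0698 CPM per kb in MII oocytes, 2.63 ± 1.18 at 30-36hpi, 8.78 ± 0.977 at 48-54hpi, 30.4 ± 5.26 at 70-76hpi and 52.3 ± 9.33 at 90-96hpi.

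**Figure D3:**
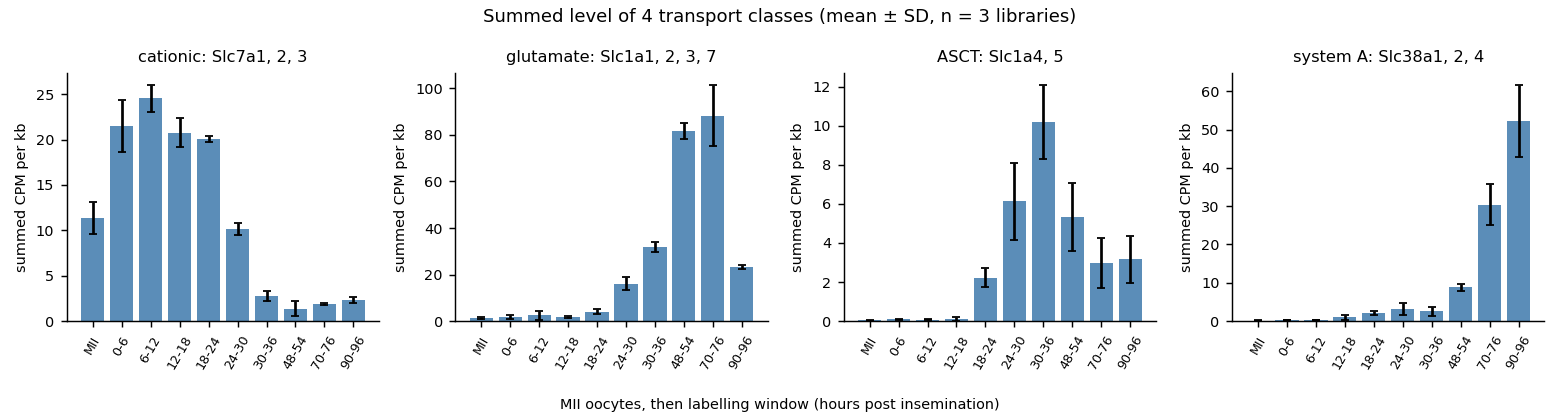
Summed CPM per kb of the cationic carriers, the glutamate carriers, the ASCT exchangers and system A in MII oocytes and 9 windows (bars, mean; error bars, SD; 3 libraries each). The highest bar is at 6-12hpi for the cationic carriers (24.5), at 70-76hpi for the glutamate carriers (88.3), at 30-36hpi for the ASCT exchangers (10.2) and at 90-96hpi for system A (52.3).

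Slc38a9, the arginine sensor through which lysosomes signal to mTORC1, was at 6.58, 11 and 5.19 CPM in MII oocytes, 13.9, 15.2 and 15.8 at 0-6hpi and 25.5, 24.6 and 18.3 at 6-12hpi. At 12-18hpi the libraries read 12.3, 22.1 and 16.3 CPM, and at 18-24hpi 10.8, 10.0 and 16.1. Later it was at 3.11, 1.54 and 6.02 CPM at 24-30hpi, 5.94, 0.696 and 1.36 at 30-36hpi, 2.72, 7.18 and 4.46 at 48-54hpi, 6.84, 5.04 and 7.1 at 70-76hpi and 4.99, 8.29 and 6.49 at 90-96hpi. Its highest mean was at 6-12hpi, with libraries that overlapped those of 12-18hpi. It fell at 24-30hpi (log2FC -1.77 ± 0.48, adjusted p = 0.00274; from 12-18hpi to 30-36hpi, log2FC -2.68 ± 0.50, adjusted p = 1.13e-05). Its rise from MII oocytes to 12-18hpi (log2FC 1.15 ± 0.46, adjusted p = 0.0405) was lost on leaving out library 1 or 3 of MII oocytes or any library of 12-18hpi (adjusted p = 0.0561 to 0.237) and with DESeq2 size factors (adjusted p = 0.0554). Slc38a7, a lysosomal glutamine carrier, had a low in the middle windows: 12.7 ± 0.655 CPM at 0-6hpi, 3.54 ± 1.45 at 48-54hpi and 13.2 ± 5.75 at 70-76hpi (log2FC 1.89 ± 0.43, adjusted p = 0.00042). Slc36a1, a proton-coupled carrier of lysosomes, stayed between 1.02 ± 0.127 and 4.75 ± 0.547 CPM.

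Slc43a3 (chr2:84936545-84958509) was the second most abundant member per kilobase in MII oocytes, at 89.3 ± 4.69 CPM per kb. Its libraries read 220.3, 243 and 239 CPM in MII oocytes, 207, 222 and 230.2 at 0-6hpi and 155, 156 and 148 at 6-12hpi. The 12-18hpi libraries gave 162, 183 and 164 CPM and those of 18-24hpi 157, 161 and 169.5. They read 117, 126 and 133 CPM at 24-30hpi, 51.1, 96.4 and 81.3 at 30-36hpi, 135, 167 and 154 at 48-54hpi, 332, 401 and 377 at 70-76hpi and 111, 107 and 127 at 90-96hpi. The 70-76hpi libraries stood above those of all other groups. It fell over the 1-cell span (log2FC -0.47 ± 0.14, adjusted p = 0.00728) and to 30-36hpi (log2FC -0.71 ± 0.14, adjusted p = 8.54e-05; from 12-18hpi, log2FC -1.15 ± 0.14, adjusted p = 8.35e-09). It rose to 48-54hpi (log2FC 0.99 ± 0.14, adjusted p = 2.61e-07) and 70-76hpi (log2FC 1.28 ± 0.14, adjusted p = 3.22e-09), and it fell to 90-96hpi (log2FC -1.69 ± 0.15, adjusted p = 1.54e-11; against MII oocytes, log2FC -1.03 ± 0.14, adjusted p = 5.41e-08).

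Other steps of Slc43a3 were sensitive to single libraries. The fall at 6-12hpi (log2FC -0.52 ± 0.14, adjusted p = 0.015) was lost on leaving out library 3 of 0-6hpi or library 3 of 6-12hpi (adjusted p = 0.0533 to 0.0623). That at 24-30hpi (log2FC -0.37 ± 0.14, adjusted p = 0.0302) was lost on leaving out any library of 18-24hpi or library 1 or 2 of 24-30hpi (adjusted p = 0.0616 to 0.679), with total count scaling (adjusted p = 0.867), without the filter on low counts (adjusted p = 0.0858) and in a fit of these 2 groups alone (adjusted p = 0.0972), and its sign changed under total count scaling (log2FC 0.0346). The one from 48-54hpi to 90-96hpi (log2FC -0.40 ± 0.14, adjusted p = 0.0152) was lost on leaving out library 2 or 3 of 48-54hpi or library 1 or 2 of 90-96hpi (adjusted p = 0.0617 to 0.0917) and with total count scaling (adjusted p = 0.689). Slc43a1 (LAT3), 73.0 kb away, did not exceed 1.21 ± 0.221 CPM in any group.

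**Figure D4:**
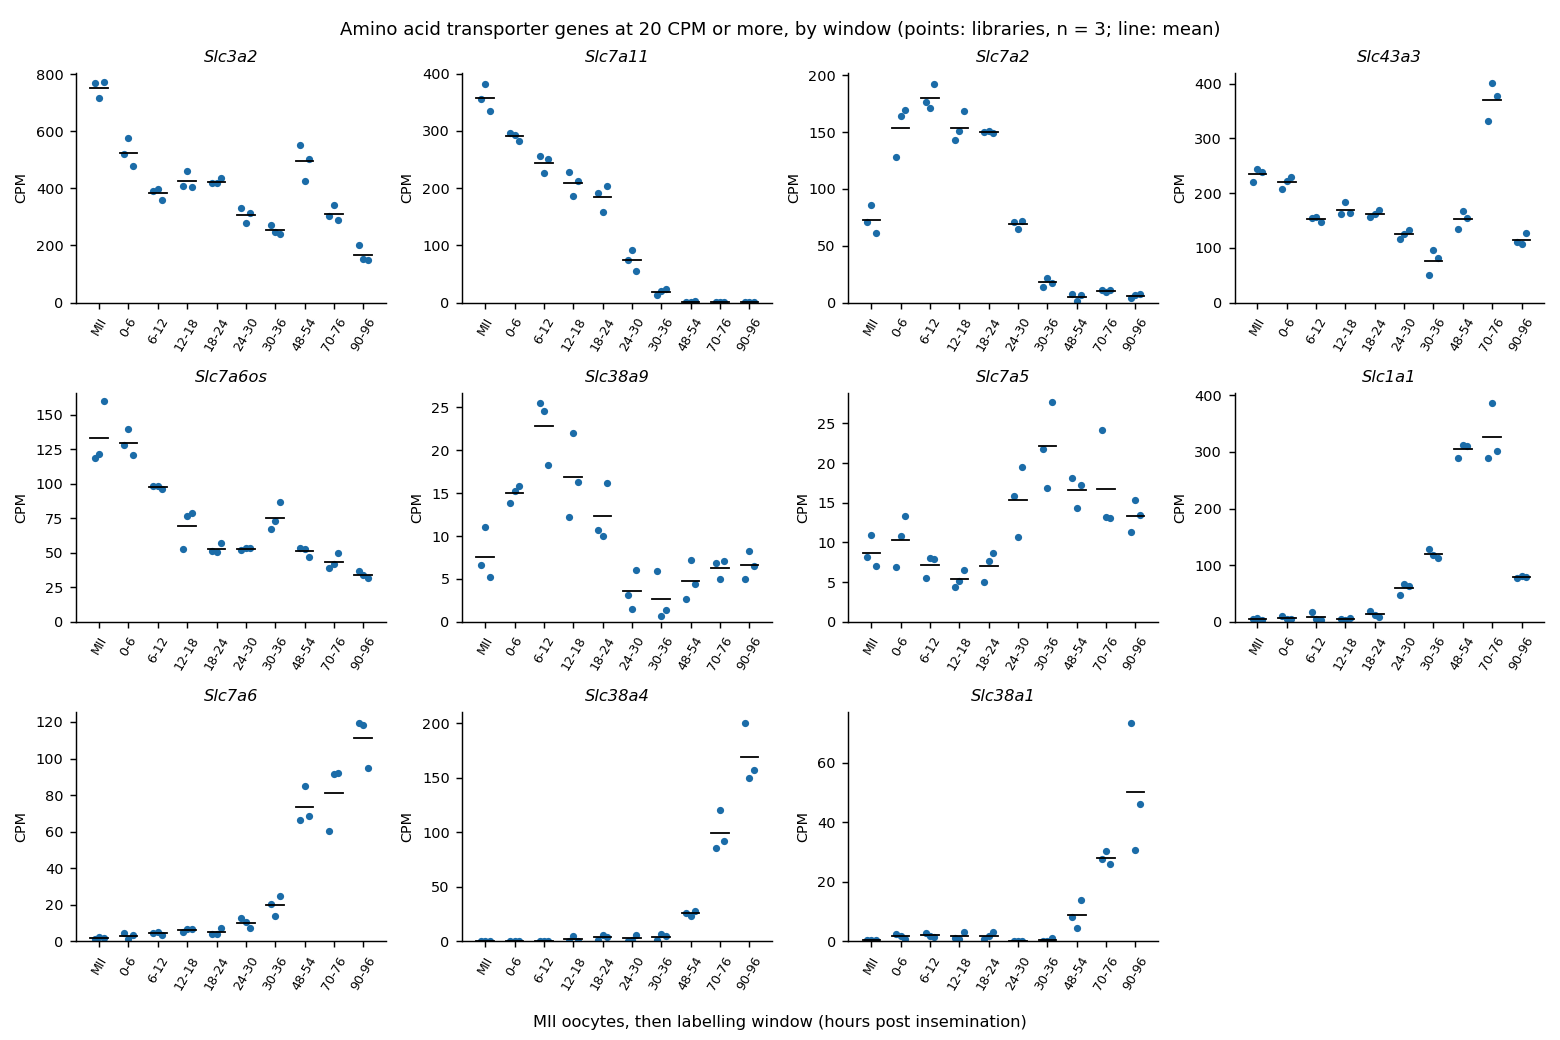
Levels (CPM, linear axes from 0) of the 11 members that reach 20 CPM in a window, with 1 point per library and a line at the mean of 3. Slc7a11 and Slc7a2 run out by 48-54hpi, when Slc1a1, Slc7a6, Slc38a4 and Slc38a1 come up, and Slc3a2 and Slc43a3 each have a second maximum (48-54hpi and 70-76hpi).

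The other 8 tested members had group means of at most 8.71 CPM. Slc38a6 and Slc38a10 had their highest means at 90-96hpi (8.71 ± 0.878 and 6.63 ± 1.22 CPM), and Slc38a8 had its highest at 18-24hpi (8.04 ± 5.03 CPM). Slc36a3, Slc38a5, Slc38a11, Slc7a4 and Slc7a14 did not exceed the 2.04 ± 1.81 CPM of Slc38a11 in MII oocytes. The 8 genes untested in the windows (Slc1a2, Slc1a7, Slc36a2, Slc36a4, Slc7a10, Slc7a12, Slc7a13 and Slc7a15) had at most 23 reads in a window library. In the genotypes Slc36a4 was tested, with at most 79 reads in a library, and Slc36a3, with 0 reads there, was not.

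The members that passed the test at each step are given with the shares of all genes that did. From MII oocytes to 0-6hpi 5 rose and 1 fell of 34 (all genes: 12.9% up and 8.28% down), and at 6-12hpi 2 fell (4.73% and 2.93%). At 12-18hpi 4 rose and 1 fell (7.11% and 6.09%), and at 18-24hpi 7 rose and none fell (18.1% and 14.9%). At 24-30hpi 6 rose and 8 fell (21% and 24.4%), and at 30-36hpi 5 rose and 8 fell (21% and 29%). Members and all genes both had the most calls at 48-54hpi, with 11 members up and 9 down (28.7% and 33.3%). Then 7 rose and 3 fell at 70-76hpi (21.6% and 21.8%), and 3 rose and 4 fell at 90-96hpi (20.1% and 19.5%). From 30-36hpi on the windows do not adjoin, so these last steps span more time than those before.

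Over longer spans, 11 members rose and 6 fell from MII oocytes to 12-18hpi (27.9% and 15.9% of all genes), 9 rose and 10 fell from 12-18hpi to 30-36hpi (33.3% and 41%), and 8 rose and 6 fell from 48-54hpi to 90-96hpi (29.7% and 27.2%). From MII oocytes to 90-96hpi 17 of 34 rose and 6 fell (42.6% and 38.4%). The median log2 fold change of the members in that last span was 2.21, against 0.27 for all genes, or 1.03 against 0.12 when groups with at most 3 reads are set to 3 reads. With totals as the only scaling, the median over all genes moved by 0.39 at 24-30hpi, where 10 members rose and 4 fell (all genes: 30.2% up and 13.6% down). It moved by 0.52 from 12-18hpi to 30-36hpi, with 13 up and 6 down (40.6% and 32.7%), by -0.48 at 48-54hpi, with 10 up and 11 down (20.6% and 43%), and by 0.32 from 48-54hpi to 90-96hpi, with 10 up and 3 down (36.6% and 21.8%). At 0-6hpi it moved by 0.16, with 5 up and 1 down (16.9% and 4.69%), and at 70-76hpi by 0.20, with 7 up and 3 down (27.5% and 17.1%). At 12-18hpi it moved by -0.07, with 4 up and 1 down (5.57% and 7.25%). In the other comparisons between windows that scaling moved the split of all calls less, with shifts of the median of 0.12 at 18-24hpi, 0.10 at 90-96hpi, 0.11 from MII oocytes to 12-18hpi and 0.53 from MII oocytes to 90-96hpi.

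Counts in the early steps rested on single libraries. The 6 calls at 0-6hpi became 3 without MII replicate 1, and the 2 at 6-12hpi became 1 without replicate 3 of 0-6hpi or of 6-12hpi. The 5 calls at 12-18hpi became 2, 1 and 3 without 6-12hpi replicate 1, 2 and 3, and 2 without 12-18hpi replicate 1 or 2. The 7 at 18-24hpi became 4 without 12-18hpi replicate 3 or 18-24hpi replicate 1.

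Genes around the carriers were followed as lists. Of all genes, 27.9% rose and 15.9% fell from MII oocytes to 12-18hpi. The shares were 33.3% and 41% from there to 30-36hpi, and 29.7% and 27.2% from 48-54hpi to 90-96hpi. Of the 19 tested genes among the other amino acid carriers, from the Slc6, Slc15, Slc16, Slc25 and related families, 2 rose and 5 fell from MII oocytes to 12-18hpi, 7 rose and 7 fell from there to 30-36hpi, and 5 rose and 9 fell from 48-54hpi to 90-96hpi. Slc6a6, the taurine carrier, fell from 103 ± 11.4 CPM in MII oocytes to 42.3 ± 7.04 CPM at 12-18hpi (log2FC -1.28 ± 0.20, adjusted p = 1.7e-06) and from 282 ± 37.3 CPM at 48-54hpi to 48.4 ± 1.87 CPM at 90-96hpi (log2FC -2.54 ± 0.20, adjusted p = 3.59e-13). Slc16a10, an aromatic amino acid carrier, fell from 115 ± 24.7 to 43.7 ± 8.08 CPM over the 1-cell span (log2FC -1.39 ± 0.21, adjusted p = 1.28e-06). Slc25a44, the mitochondrial carrier of branched-chain amino acids, rose from 24.2 ± 8.25 to 262 ± 27.7 CPM between 12-18hpi and 30-36hpi (log2FC 3.43 ± 0.21, adjusted p = 9.93e-17), while Slc25a13, an aspartate-glutamate carrier, fell from 89.9 ± 0.965 to 10.4 ± 4 CPM (log2FC -3.09 ± 0.23, adjusted p = 1.88e-14).

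Of 30 genes of amino acid metabolism, 10 rose and 8 fell from MII oocytes to 12-18hpi, 17 rose and 10 fell from 12-18hpi to 30-36hpi, and 11 rose and 12 fell from 48-54hpi to 90-96hpi. The shares over all genes in these spans were 27.9% up and 15.9% down, 33.3% and 41%, and 29.7% and 27.2%. Arg2, a mitochondrial arginase, rose in the windows in which Slc7a2 was high, from 31.4 ± 7.19 CPM in MII oocytes to 329 ± 36.4 CPM at 12-18hpi (log2FC 3.39 ± 0.22, adjusted p = 7.01e-15). Odc1, the ornithine decarboxylase of polyamine synthesis, rose from 72.7 ± 5.78 to 531 ± 64.7 CPM by 30-36hpi (log2FC 2.87 ± 0.12, adjusted p = 9.15e-21), and Mat2a, which makes S-adenosylmethionine, from 188 ± 11.1 to 1389 ± 99.9 CPM (log2FC 2.89 ± 0.15, adjusted p = 1.16e-18). Bcat1, a transaminase of branched-chain amino acids, fell from 1695 ± 72.8 to 162 ± 43 CPM by 90-96hpi (log2FC -3.39 ± 0.16, adjusted p = 3.03e-19). The median log2 fold change of the metabolism list was 0.11, 1.22 and -0.06 in the 3 spans, where it was 0.33, -0.29 and 0.11 for all genes.

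Of 25 tested genes of the amino acid response, which GCN2 and ATF4 direct when amino acids run short, 10 rose and 4 fell from MII oocytes to 12-18hpi, 12 rose and 8 fell from 12-18hpi to 30-36hpi, and 6 rose and 16 fell from 48-54hpi to 90-96hpi. Atf4 itself rose from 48.7 ± 13.2 to 109 ± 13.5 CPM over the 1-cell span (log2FC 1.17 ± 0.17, adjusted p = 8.52e-07). Slc7a11, a known target of its protein, fell over that span, and a link between the RNA levels was not tested. Sesn2, a leucine sensor, rose from 1.82 ± 0.791 to 64.8 ± 7.84 CPM by 30-36hpi (log2FC 5.14 ± 0.35, adjusted p = 1.8e-15), and Cth, which makes cysteine, fell from 649 ± 71.2 to 69.7 ± 14.1 CPM by 90-96hpi (log2FC -3.22 ± 0.18, adjusted p = 1.51e-17). Of 34 tested genes that carry amino acid signals to mTORC1, 10 rose and 7 fell, 10 rose and 14 fell, and 10 rose and 11 fell in these 3 spans. For both lists, the shares over all genes were 27.9% up and 15.9% down, 33.3% and 41%, and 29.7% and 27.2%. Rragc, a Rag GTPase, fell from 725 ± 84.2 to 204 ± 20.7 CPM (log2FC -1.83 ± 0.13, adjusted p = 3.92e-14), and Lamtor1, which anchors the Rag proteins to lysosomes, rose from 15.2 ± 4.38 to 85.9 ± 5.78 CPM (log2FC 2.49 ± 0.19, adjusted p = 1.76e-13). In the same spans the medians were -0.05, -0.15 and -0.74 for the other carriers, 0.77, 0.58 and -1.04 for the response genes and 0.22, -0.02 and 0.01 for the mTORC1 genes.

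The genotype libraries compare embryos with and without Klf17, a Kruppel-like transcription factor, or without the copy from 1 parent, as the labels name them. Klf17 itself was at 596, 805 and 746 CPM in the control libraries, 673, 603 and 728 CPM in those labelled KO, 359, 845 and 794 CPM in those labelled mKO and 812 and 1015 CPM in those labelled pKO. It was therefore not lower in the libraries labelled KO, and since the deleted part is not given, the count checks the labels only as far as reads outside a deletion can. The libraries labelled KO also held more mitochondrial reads (5.92% to 11.4%, against 3.23% to 4.18% in controls) and more oocyte marker RNA (3775 to 4285 CPM summed over 9 genes, against 2105 to 2907 CPM). The part of these differences in the values below was not tested.

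None of the 34 tested transporter genes passed the test in any of the 6 comparisons between genotype labels. In KO against ctrl, 8.13% of all genes were called (1.82% up and 6.31% down) and 0 members. At an unadjusted p below 0.05 there were 4 members, where 25.7% of all genes were. DESeq2's Wald test called 1 member (Slc7a8) and 14.8% of all genes, and edgeR fitted to these groups alone called 2 (Slc1a1 and Slc7a8) and 21.5% of all genes. In KO against pKO, 12.5% of all genes were called (2.83% up and 9.67% down) and 0 members. There 9 members and 30% of all genes had an unadjusted p below 0.05, and DESeq2 called 6 members and 20.5% of all genes. With totals as the only scaling 3.79% of all genes rose and 7.6% fell in KO against pKO, again with 0 members called, and the median over all genes moved by 0.11 there and by 0.14 in mKO against pKO. In mKO against ctrl, pKO against ctrl, KO against mKO and mKO against pKO, edgeR called 0% of all genes. In the same order, 2, 1, 1 and 4 members had an unadjusted p below 0.05, where 7.45%, 2.85%, 13.3% and 11.5% of all genes did. DESeq2 called no member in these 4 comparisons, and 0.192%, 0.012%, 1.79% and 0.726% of all genes. Over all 4 labels 4.61% of genes varied and no member did.

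Slc1a1 was at 132, 141 and 115 CPM in controls, 52, 88.1 and 76.2 in libraries labelled KO, 52.1, 141 and 49.4 in mKO and 108 and 157 in pKO. The libraries labelled KO lay below all controls, with a log2 fold change of -0.84 (SE 0.37) that missed the threshold (unadjusted p = 0.0373, adjusted p = 0.165; 0.0279 when only these groups were fitted). In mKO, replicate 2 was level with the highest control and the other libraries were level with the lowest of KO. Slc1a5 was at 21.9, 28.2 and 34 CPM in controls, 10.7, 14 and 18.3 in KO, 10.5, 21.5 and 13.8 in mKO and 23.7 and 40.6 in pKO (log2FC -0.97 ± 0.39, adjusted p = 0.13 for KO against ctrl). Slc1a4 had 16.4, 26.2 and 41.3 CPM in controls, 13.2, 15.5 and 16.2 in KO, 8.02, 22.1 and 22.9 in mKO and 29 and 54.4 in pKO (log2FC -1.48 ± 0.48, adjusted p = 0.0525 for KO against pKO). That difference of Slc1a4 passed the threshold without the filter on low counts (adjusted p = 0.0181), in a fit of these groups alone (adjusted p = 0.0293) and by DESeq2's Wald test (adjusted p = 0.0331). With the replicate number as a block, Slc1a4 and Slc1a5 both passed the threshold in KO against pKO. For Slc1a5 neither KO nor mKO libraries overlapped with controls, and for Slc1a4 the libraries labelled KO lay below the lowest control and both pKO libraries. In KO against ctrl, 9 of the 34 tested members had libraries that did not overlap. The share of all genes without overlap is not given here, so separation alone does not set these genes apart. Slc1a1, Slc1a4 and Slc1a5 are among the 9 members that rose from 12-18hpi to 30-36hpi in the wild-type windows. Among the rest of those 9, the mean in KO was above that of controls for Slc38a2, Slc38a3 and Slc7a6. It was below that of controls for Slc38a6, Slc43a2 and Slc7a5.

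**Figure D5:**
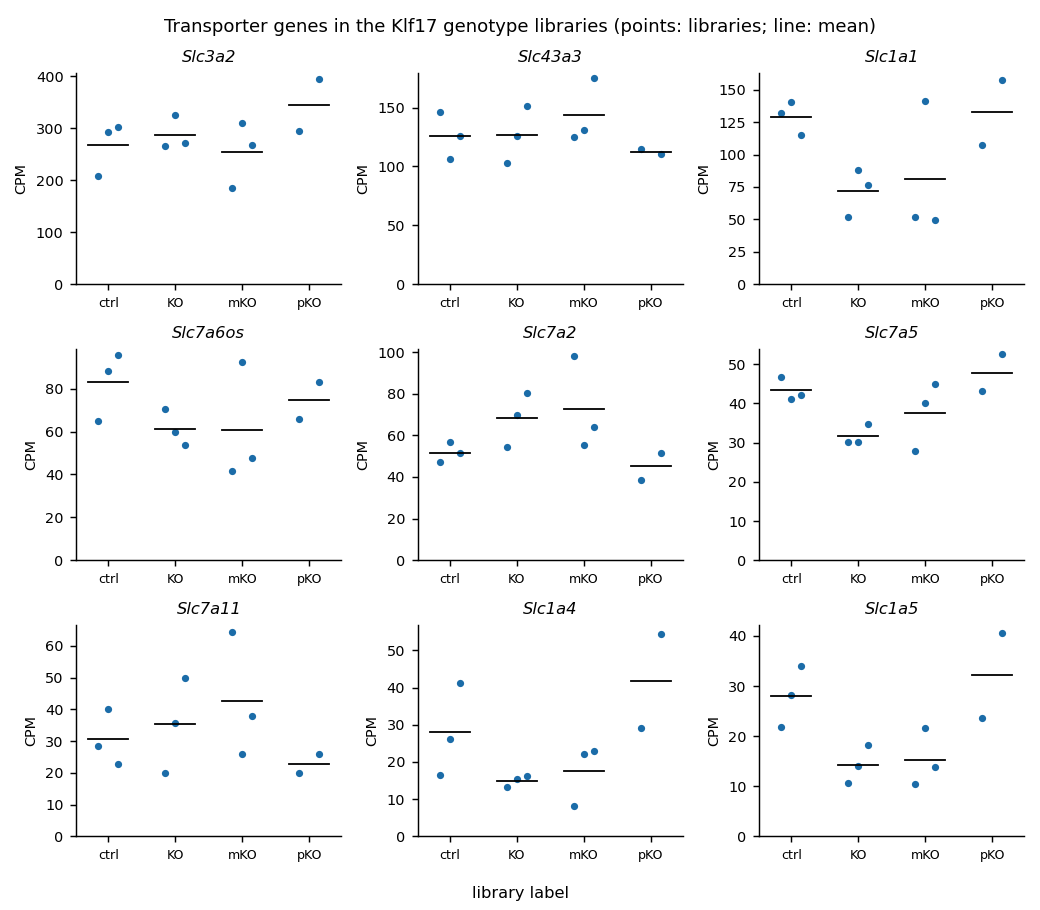
Levels (CPM, linear axes from 0) of the 9 members that reach 20 CPM in a genotype, with 1 point per library (3 for ctrl, KO and mKO, 2 for pKO) and a line at the mean. Slc1a1 and Slc1a5 are lower in the 3 libraries labelled KO than in the 3 controls, and neither passed the test.

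Slc7a8 had the smallest unadjusted p among the members in KO against ctrl, and its libraries did not overlap, at 4.56, 5.57 and 1.69 CPM in controls and 6.97, 18.6 and 12.4 CPM in libraries labelled KO (log2FC 1.68 ± 0.61, adjusted p = 0.0933). It was at 2.64, 6.61 and 6.52 CPM in mKO and 2.49 and 4.73 CPM in pKO. The heavy chain Slc3a2 was at 208, 292 and 302 CPM in controls, 266, 325 and 272 in KO, 186, 310.0 and 268 in mKO and 295 and 395 in pKO, with overlapping libraries. Slc7a5, its main partner at this stage with 57.3 ± 5.28% of the light-chain sum in controls, had 46.6, 41.2 and 42.2 CPM in controls, 30.2, 30.1 and 34.8 in KO, 27.9, 40.1 and 44.9 in mKO and 43.1 and 52.6 in pKO. Its KO libraries lay below all controls without passing the test (log2FC -0.45 ± 0.30, adjusted p = 0.365), and its share was 42.3 ± 5.97% in KO.

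The carriers that were abundant in eggs passed no test between genotypes. Slc7a11 was at 28.6, 40.1 and 22.8 CPM in controls, 19.9, 35.8 and 49.9 in KO, 64.2, 25.9 and 37.9 in mKO and 19.9 and 26 in pKO. Slc7a2 was at 47, 56.6 and 51.6, 54.5, 69.9 and 80.2, 98.3, 55.5 and 63.8 and 38.4 and 51.7 CPM in the same order. Slc43a3 was at 147, 106 and 126, 103, 125 and 151, 125, 131 and 176 and 114 and 110.5 CPM. Slc7a6os, the neighbour of Slc7a6, was at 65.2, 88.2 and 95.7, 70.6, 59.8 and 53.9, 41.8, 92.3 and 47.6 and 65.9 and 83.2 CPM. The libraries of each label overlapped with the controls for Slc7a11, Slc7a2, Slc43a3 and Slc7a6os. Over all 34 members the median log2 fold change was 0.36 in KO against ctrl, where it was 0.05 for all genes, and -0.10 and -0.11 in mKO and pKO against ctrl, comparisons that share the controls.

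Around them, some genes of the other lists passed the test in KO against ctrl, and each of those named here lost its call without at least 1 of the libraries. Of all genes, 1.82% rose and 6.31% fell in this comparison. Of 30 genes of amino acid metabolism 3 fell and none rose, among them Mat2a, from 1621 ± 161 to 435 ± 96.7 CPM (log2FC -1.90 ± 0.38, adjusted p = 0.0118; lost on leaving out library 1 or 2 of KO (adjusted p = 0.0556 to 0.0738)), and Gldc of glycine cleavage, from 149.7 ± 12.8 to 44.5 ± 10.7 CPM (log2FC -1.75 ± 0.35, adjusted p = 0.0114; lost on leaving out library 2 of KO (adjusted p = 0.0732)). Of 25 genes of the amino acid response 1 rose and 3 fell: Atf3, a stress-induced transcription factor, rose from 1.47 ± 0.843 to 30.8 ± 10.7 CPM (log2FC 4.38 ± 0.74, adjusted p = 0.00661; lost on leaving out library 2 of KO (adjusted p = 0.0585)), and Psat1 of serine synthesis fell from 489.7 ± 40.5 to 138 ± 30.9 CPM (log2FC -1.83 ± 0.37, adjusted p = 0.0118; lost on leaving out library 1 or 2 of KO (adjusted p = 0.0577 to 0.0611)). Of 35 mTORC1 genes 2 rose and 2 fell, with Mtor at 41.9 ± 3.47 CPM in controls and 17 ± 6.59 CPM in KO (log2FC -1.30 ± 0.34, adjusted p = 0.0291; lost on leaving out library 2 or 3 of ctrl or library 1 or 2 of KO (adjusted p = 0.105 to 0.133)). Of 21 other carriers 1 fell, Slc25a44, from 395 ± 96 to 141 ± 39.4 CPM (log2FC -1.49 ± 0.33, adjusted p = 0.0148; lost on leaving out library 2 or 3 of ctrl or library 1 or 2 of KO (adjusted p = 0.0577 to 0.0844)).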

How the data were processed

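RNA was counted per gene in 30 window libraries and 11 genotype libraries; 6 libraries with other embryo numbers and 14 ATAC-seq libraries were not used. Per the file headers, the deposited tables hold read counts per gene with the gene length, one column per library, and 1 column (90-96hpi replicate 3) was treated as a column of expected counts because 1 record of the deposited file holds a fraction; that record was left out and the values rounded. Per the submitters' processing notes, Trim Galore 0.6.10 and STAR 2.7.10a were used with the mm10 build. The counter, its strand setting, and whether all reads or only converted reads were counted are not given in the sources used here.

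The members and gene lists were chosen with earlier results of these data known. Genes passed edgeR's filterByExpr (minimum count 10, minimum total 15). Each experiment was fitted over all its groups with edgeR 4.0.16 (TMM, robust quasi-likelihood F-test; R 4.3.3), with Benjamini-Hochberg adjustment over all genes tested and a threshold of 0.05. CPM use TMM-scaled totals, levels of different genes are compared per kilobase of the deposited gene length, and the standard error (SE) is the fold change divided by the square root of F. Members reaching 20 CPM in a group are given by library, and each other list by its 3 genes of smallest adjusted p at 20 CPM or more in 3 window spans and in KO against ctrl, of which the printed ones were picked after their values were seen. Alternatives were DESeq2 size factors, total counts, DESeq2 1.42.0, no filter, 2-group fits, a replicate block, no mitochondrial genes, a minimum fold and each library left out. The scripts were tested on simulated data.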

Additional observations from a re-analysis of the deposited data

How the results depend on the processing

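Of 157 calls of single transporter genes, 104 passed the threshold under every alternative other than the minimum fold, 53 were lost in at least 1 and 50 of these when a single library was left out. Slc43a3 at 24-30hpi against 18-24hpi changed sign with total count scaling (log2 fold change 0.0346). Leaving out 1 library gave 3 to 7 called members at 0-6hpi, 1 to 2 at 6-12hpi, 1 to 6 at 12-18hpi, 4 to 6 at 18-24hpi, 10 to 14 at 24-30hpi, 9 to 12 at 30-36hpi, 18 to 23 at 48-54hpi, 8 to 11 at 70-76hpi and 5 to 7 at 90-96hpi, each against the window before. It gave 14 to 16 from MII oocytes to 12-18hpi, 16 to 21 from there to 30-36hpi, 10 to 14 from 48-54hpi to 90-96hpi, 22 to 24 from MII oocytes to 90-96hpi and 31 to 33 over all windows. It gave 0 to 0 for KO, mKO and pKO against ctrl and for KO against mKO and pKO, and 0 to 1 for mKO against pKO and over all genotypes, with 1 call in each without mKO replicate 2. At 6-12hpi the 2 calls became 1 without the low-count filter, 7 in a 2-group fit and 0 with the minimum fold, and at 90-96hpi the 7 became 11 in a 2-group fit. For KO against ctrl the 0 calls became 2 in a 2-group fit and 1 by DESeq2's Wald test. For KO against pKO they became 4 without the filter, 2 with the replicate block, 2 in a 2-group fit and 6 by DESeq2's Wald test. Over all genotypes they became 2 without the filter and 1 with the block. The cause was not tested. The block changed no other count by over 1.5 times. With it, calls of the text that passed without it missed the threshold for Slc7a2 at 90-96hpi against 70-76hpi (adjusted p = 0.0505) and Slc38a9 from MII oocytes to 12-18hpi (adjusted p = 0.0511), and in KO against pKO Slc1a4 (adjusted p = 0.013) and Slc1a5 (adjusted p = 0.0417) passed it. The labels tie the replicates by a number only. Same-numbered libraries correlated in their deviations at -0.07 to 0.16 in the windows and -0.05 to 0.32 in the genotypes. In the windows 14 of 30 libraries correlated best with their own number, and in the genotypes 9 of 11 did. Whether same-numbered genotype libraries shared a batch was not tested. The alternatives for genes of the other lists were chosen after seeing the data; their named calls in the windows were kept in all of them. Members under about 1 CPM rest on a few reads per library.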
